A study of Mus musculus with 6 samples.

Results

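The Tmem176 cells were the sorted spleen T cells with mRNA of Tmem176a and Tmem176b, a pair of neighbouring genes for membrane proteins of the MS4A-like family. A cell was taken when it had at least 200 genes, under 10% mitochondrial unique molecular identifiers (UMIs, each marking 1 captured mRNA), no UMI of the B-cell gene Cd79a or the myeloid genes Lyz2 and Tyrobp, and a summed count of at least 2 UMIs of Tmem176a and Tmem176b. Of 10685 cells in all, 10086 passed the limits and 52 of these (0.516%, exact binomial interval 0.385 to 0.676%) were Tmem176 cells. They were set against the 9829 cells that passed the same limits with a sum of 0, and 205 cells with a sum of 1 lay between. The cells were thus chosen by their own counts. Levels of Tmem176a and Tmem176b are no result, and their sum is used below only to order or split cells.

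The cells were EGFP-positive regulatory T (Treg) cells, FACS-sorted after CD4 enrichment from spleens of C57BL/6 mice aged 18 to 21 weeks that had received tamoxifen. The 3 cKO samples had loxP-flanked Bach2 on both alleles (Bach2fl/fl Foxp3EGFP-Cre-ERT2), and the 3 WT samples had intact Bach2 (Bach2+/+ Foxp3EGFP-Cre-ERT2). Both groups carried the tamoxifen-inducible Cre and the EGFP reporter, which the Foxp3 locus drives, so that deletion is limited to cells that express Foxp3. No cell column could be tied to a sample, so the genotypes could not be set against each other, and the 6 sets of cells that share a barcode suffix stand without a genotype.

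Some Treg cells of mouse carry, beside Foxp3, parts of the programme of T helper 17 (Th17) cells, among them the chemokine receptor CCR6 and the transcription factor c-Maf. In mouse such Treg cells are best known from the intestine, where they are mostly induced outside the thymus and have little Helios (Ikzf2) and neuropilin-1 (Nrp1), which mark Treg cells of thymic origin. Tmem176a and Tmem176b are known from mouse Th17 and type 3 innate lymphoid cells, and myeloid and dendritic cells also express them, hence the limits on Lyz2 and Tyrobp.

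The count table held 25389602 UMIs, and the 6 sets had 1641 to 1902 cells each. A level is given as CPM, the UMIs of a gene divided by all UMIs of the cells summed and scaled to 1000000, without Tmem176a and Tmem176b. The Tmem176 cells held 152038 such UMIs and the cells with a sum of 0 held 23034365, so 3 UMIs in all Tmem176 cells amounted to 19.7 CPM. The median depth was 2477.5 UMIs in Tmem176 cells and 2073 UMIs in cells with a sum of 0, and the deepest Tmem176 cell held 5.78% of their UMIs. A barcode occurred in more than 1 set in 63 cases, and 2 Tmem176 cells had such a barcode. With no map from cells to samples the table was treated as 1 sample: kinds of cell were compared within the sets, the genotypes could not be compared, and no p-value was computed. Intervals are at the 95% level and take in counting error alone.

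The 6 sets held 12, 4, 11, 10, 5 and 10 Tmem176 cells, or 0.236% to 0.688% of the cells that passed the limits in a set. The exact intervals of these shares overlapped, running from 0.0642 to 0.602% in the lowest set and from 0.356% upward in the highest. Tmem176a (chromosome 6, 48840919 to 48847071, plus strand, mm10) and Tmem176b (chromosome 6, 48833818 to 48841496, minus strand) overlap at their 5′ ends, and both are protein coding. Both genes had a UMI in 32 Tmem176 cells, Tmem176a alone in 7 and Tmem176b alone in 13. Just inside the threshold lay 32 cells with a sum of 2, and 20 cells had 3 or more, up to a highest sum of 10. Just outside it lay the 205 cells with a sum of 1.

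The type 17 label fitted a minority of the Tmem176 cells. The label's markers besides the rule's genes were Ccr6, the receptor for the chemokine CCL20, Serpinb1a, an inhibitor of neutrophil proteases, and Aqp3, a water and glycerol channel. An earlier grouping of these same cells gave the markers, so their levels are a description. A UMI of 1 or more of these genes was found in 15 of 52 Tmem176 cells (28.8%, 17.1 to 43.1%), against 348 of 9829 cells with a sum of 0 (3.54%, 3.18 to 3.93%). With every cell thinned to 1000 UMIs, 6 of 52 Tmem176 cells (11.5%) had such a UMI, against 153 of 9535 cells with a sum of 0 (1.60%). The other 37 Tmem176 cells had no UMI of these 3 genes, which at this depth does not show that the genes were off, and the cells are called Tmem176 cells here and not Th17-like.

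Serpinb1a (chromosome 13, 32842092 to 32851185) had 9 UMIs in 7 Tmem176 cells, against 0.337 UMIs expected from the cells with a sum of 0 of the same sets. Its level ran from 0 to 219 CPM over the sets in Tmem176 cells, with a median of 54.8, and from 0.481 to 4.09 CPM in cells with a sum of 0, with a median of 2.33. The ratio over sets was 27.2-fold, with a wide interval of 11.7 to 56.1-fold. Ccr6 (chromosome 17, 8236043 to 8257141) had 8 UMIs in 7 Tmem176 cells, against 1.36 expected, or 5.93-fold (2.52 to 11.9-fold). Aqp3 (chromosome 4, 41092722 to 41098183) had 5 UMIs in 5 Tmem176 cells, against 0.720 expected, or 6.97-fold (2.21 to 16.8-fold). For each of the 3 genes the sets overlapped between the groups, since at least 1 set had no UMI in its Tmem176 cells. Each of the 3 also stayed under 10 UMIs, the minimum for a gene to count as measured below. More than 1 of the 3 genes was found in 4 Tmem176 cells of 4 sets (7.69%, 2.14 to 18.5%), against 5 of 9829 cells with a sum of 0 (0.0509%, 0.0165 to 0.119%).

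Free RNA was looked for in 87 cells with 2 or more Cd79a UMIs, at a median of 1975.5 UMIs. After thinning, 18.4% of them had a Cd3e UMI. No doublet caller was run, so free RNA and doublets with T cells were not told apart in these cells. Among these B cells, thinned to 1000 UMIs, none had an Aqp3 UMI, against 3.85% of Tmem176 cells and 0.472% of cells with a sum of 0. Serpinb1a, which B cells of this spleen carried, had a UMI in 20.7% of them, and Ccr6, which B cells also use, in 3.45%. UMIs of other cell types were looked for too. Of 52 Tmem176 cells, 25 (48.1%, 34.0 to 62.4%) had a UMI of Cd8a, Hbb-bs, Ighm, Cd79b, Cst3 or Fcer1g. The share was 36.4% in the shallower cells with a sum of 0, which is within that interval. Cst3, a cystatin of many cell types, made up most of these, with 23 Tmem176 cells (44.2%, 30.5 to 58.7%). Its share in the shallower cells with a sum of 0 was 25.99%, below that interval. After thinning, Cst3 was found in 17.3% of Tmem176 cells (8.23 to 30.3%), against 12.9% of cells with a sum of 0, within the interval. In the 27 Tmem176 cells without UMIs of other cell types the log2 ratio of Ccr6 was 0.72, against 2.57 in all 52. Serpinb1a kept a log2 ratio of 5.21 in those 27 cells. The part of such RNA in the Ccr6 level was not tested.

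Genes were called by size. A gene was measured when it had at least 10 UMIs in the Tmem176 cells or at least 10 expected, and called when the ratio was at least 1.5-fold and lay on that side in at least 5 of the 6 sets. Of 2245 measured genes, 174 were higher (7.75%) and 100 were lower (4.45%) in Tmem176 cells. The higher share is raised by the way genes enter: 455 genes were measured through their UMIs in Tmem176 cells alone and could only be high. Among the 1790 genes with at least 10 UMIs expected, 80 were higher (4.47%) and 100 were lower (5.59%). Counts of gene lists below are over genes with at least 10 UMIs expected, or over all measured genes where so said, to be read against these shares, and members measured through the Tmem176 cells alone are named apart. With totals that leave out ribosomal protein and mitochondrial genes, 136 genes were higher and 135 lower. Ribosomal protein genes took 32.8% of the UMIs in Tmem176 cells and 35.6% in cells with a sum of 0.

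**Figure D1:**
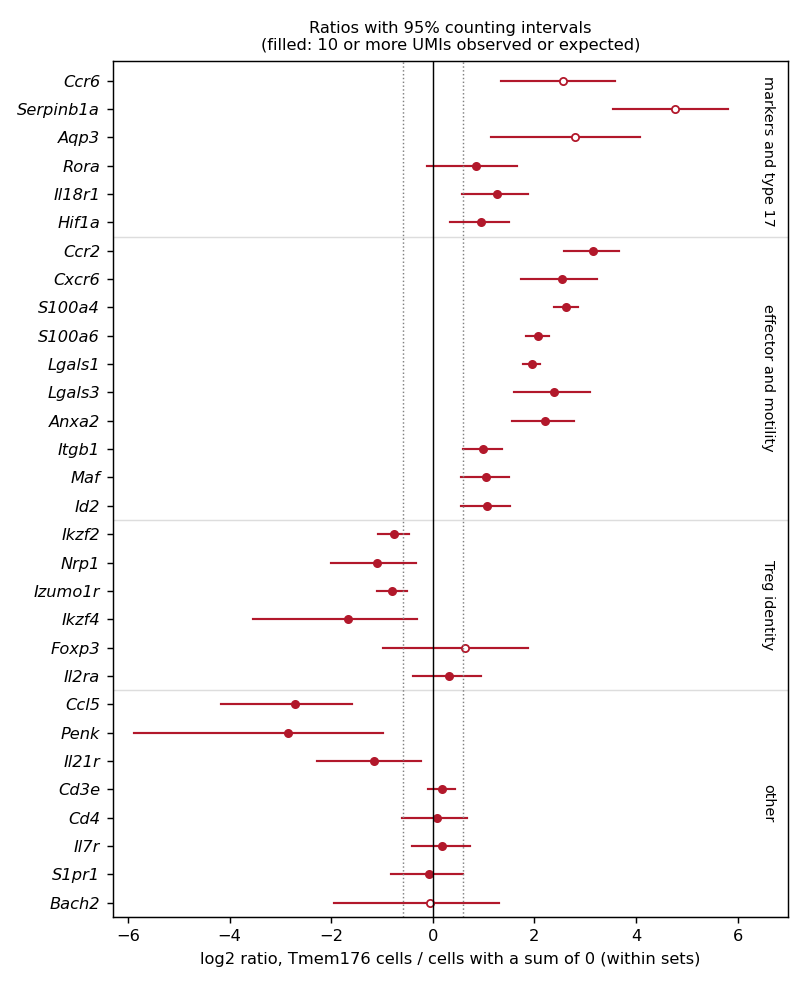
Log2 ratios of named genes, Tmem176 cells over cells with a sum of 0 within barcode sets, with 95% counting intervals. Filled points are genes with at least 10 UMIs observed or expected, open points are genes below that, and dotted lines mark the 1.5-fold limit. Ccr2, S100a4 and Lgals1 lie far to the right, Ccl5 and Penk far to the left, and the intervals of Foxp3 and Bach2 span 0.

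In the list of S100 proteins, galectins, annexins and their partners, 9 of 14 genes with at least 10 UMIs expected rose and none fell, against 4.47% and 5.59% of all such genes, with a median log2 ratio of 0.86 against 0.02. Lgals3, Anxa1 and Anxa2 were measured through the Tmem176 cells alone. S100a4, a calcium-binding protein of the cytoskeleton (chromosome 3, 90603771 to 90606045, plus strand), lay between 560.2 and 2626 CPM over the sets in Tmem176 cells, with a median of 901, and between 102 and 229 CPM in cells with a sum of 0, with a median of 190.1. The 6 sets of Tmem176 cells all stood above the 6 sets of cells with a sum of 0, and the ratio was 6.18-fold (5.22 to 7.27-fold). S100a4 was found in 32 of 52 Tmem176 cells (61.5%), against 14.5% of cells with a sum of 0. After thinning the shares were 42.3% in Tmem176 cells, 9.76% in cells with a sum of 0 and 1.15% in the B cells, so the S100a4 share lay above that of the B cells.

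Lgals1, the secreted lectin galectin-1, lay between 800.3 and 4267 CPM over the sets in Tmem176 cells, with a median of 1543, against 402 to 654 CPM in cells with a sum of 0, with a median of 511. These sets did not overlap either, and the ratio was 3.87-fold (3.44 to 4.35-fold). Of its 296 UMIs, 125 were in barcode set 6, where the 2 deepest Tmem176 cells held 80 and 32 of them. The level of that set rests mostly on these 2 cells, and the overlap without them was not tested. The same 2 cells held 98 and 75 of the 523 Crip1 UMIs and 4 and 6 of the 25 Anxa2 UMIs. S100a6, which binds annexins, rose by 4.18-fold (3.57 to 4.86-fold), and its sets overlapped, at 400.2 CPM in the lowest set of Tmem176 cells and 414 CPM in the highest set of cells with a sum of 0. Anxa2, the membrane-binding partner of S100a10, had 25 UMIs against 5.44 expected, a log2 ratio of 2.20. Lgals3, which encodes galectin-3, had 17 UMIs against 3.26 expected, a log2 ratio of 2.39. Crip1 at 1.40, the intermediate filament gene Vim at 1.21, S100a10 at 1.11, Ahnak at 0.99, Capg at 0.71 and S100a11 at 0.65 were the remaining genes of the list that rose with at least 10 UMIs expected. Anxa1, an annexin that damps inflammation, had 11 UMIs against 0.473 expected, but in 3 sets and 6 cells only, and was not called.

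In the list of chemokine and homing receptors, 2 of 12 genes with at least 10 UMIs expected rose and none fell, against 4.47% and 5.59% of all such genes. These were the integrin genes Itgb1, at a log2 ratio of 0.99, and Itgb7, at 0.62, while Cxcr3 at 0.48 and Itga4 at -0.58 were among the 10 not called. Ccr2, Cxcr6 and Cd44 were measured through the Tmem176 cells alone, and Ccr2 and Cxcr6 of these met the rule for higher genes. Ccr2, the receptor for the chemokine CCL2 (chromosome 9, 124101950 to 124113557, plus strand), lay between 0 and 766 CPM over the sets in Tmem176 cells, with a median of 170.3, against 10.7 to 38.5 CPM in cells with a sum of 0, with a median of 27.1. Its 5 highest sets were above all sets of cells with a sum of 0, and the set without a UMI was below them. The ratio was 8.85-fold (5.99 to 12.7-fold), from 32 UMIs in 14 cells. Cxcr6, the CXCL16 receptor of tissue T cells, had 17 UMIs in 11 cells against 2.98 expected, a log2 ratio of 2.54. S1pr1, which guides exit from lymphoid organs, had 18 UMIs against 19.0 expected, and the lymph node homing receptor Ccr7, from the resting list, 14 against 21.5.

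**Figure D2:**
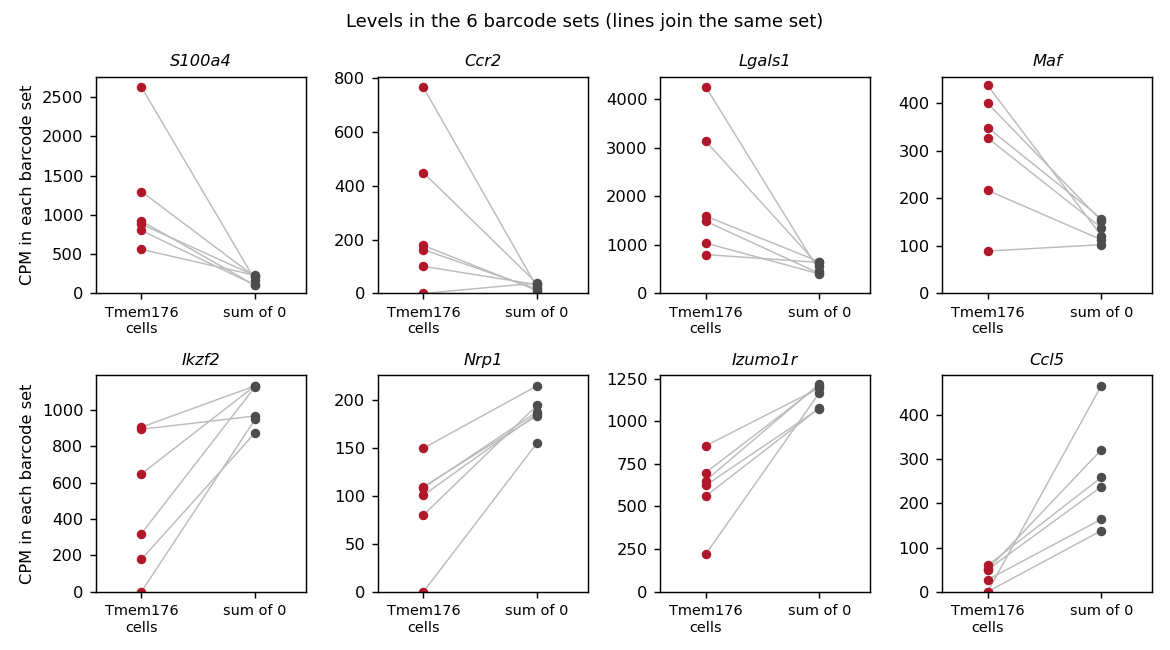
CPM of 8 genes in each of the 6 barcode sets, Tmem176 cells on the left and cells with a sum of 0 on the right, with a line joining the values of the same set. S100a4 and Lgals1 stand higher in Tmem176 cells in all 6 sets, Ccr2 and Maf in 5, and Ikzf2, Nrp1, Izumo1r and Ccl5 stand lower in all 6.

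Of the type 17 list, with 19 genes in the table, 4 had at least 10 UMIs expected, with a median log2 ratio of 0.30. Of these, 1, Hif1a, rose and none fell, against 4.47% and 5.59% of all such genes. Hif1a, the hypoxia factor that favours the Th17 programme, had 26 UMIs against 13.4 expected, a log2 ratio of 0.95 with sets that did not overlap. Il18r1 and Rora were measured through the Tmem176 cells alone. Il18r1, a chain of the interleukin-18 receptor, had 22 UMIs against 9.19 expected, a log2 ratio of 1.26, and -0.30 in cells with a sum of 1. Maf, which encodes c-Maf, rose with 40 UMIs in 26 cells against 19.3 expected, or 2.07-fold (1.48 to 2.83-fold). Id2, a regulator shared by effector T cells and innate lymphoid cells, rose by 1.06 on the log2 scale. Rora, an orphan nuclear receptor, had 12 UMIs against 6.64 expected and lay above expectation in 3 of 6 sets, so it was not called. Il12rb1 had 9 UMIs against 2.04 expected and the leukotriene receptor gene Ltb4r1 7 against 0.976, both under the minimum. Il17a, Il17f, Il23r and Il1r1 were not analysed here. In the list of T helper lineage factors, Maf and Id2 were the 2 of 8 genes with at least 10 UMIs expected that rose, against 4.47% of all such genes. None of the 8 fell, and Gata3, Stat3 and Batf were not called.

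Ikzf2 and Nrp1 were lower in Tmem176 cells. In the list of Treg identity genes, 4 of 11 genes with at least 10 UMIs expected fell, 1, Capg, rose and 6 were not called, against 5.59% lower and 4.47% higher among all such genes. The median log2 ratio of the list was -0.37. Ikzf2, which encodes Helios (chromosome 1, 69531214 to 69687245, minus strand), lay between 0 and 906 CPM over the sets in Tmem176 cells, with a median of 484, against 874 to 1133 CPM in cells with a sum of 0, with a median of 1047. Each set was lower in its Tmem176 cells, although the groups overlapped across sets. The fall was uneven: barcode set 1 had 894 CPM against 967, and set 6 had 906 against 1133. The Tmem176 cells of these sets held 33 and 36 Ikzf2 UMIs. Sets 2, 3, 4 and 5 had 0, 178, 648 and 320 CPM, against 949, 874, 1133 and 1127. The 92 UMIs stood against 155.7 expected, 1.69-fold lower (log2 ratio -0.76, -1.07 to -0.46). Without barcode set 3 the log2 ratio was -0.55, under the 1.5-fold limit. Ikzf2 was detected in 30 of 52 Tmem176 cells (57.7%), against 79.0% of cells with a sum of 0. After thinning these shares were 40.4% and 58.8%, beside 20.7% in the B cells, where free RNA and doublets were not told apart.

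Nrp1, the semaphorin co-receptor neuropilin-1, lay between 0 and 149.6 CPM over the sets in Tmem176 cells, with a median of 105, against 155 to 215 CPM in cells with a sum of 0, with a median of 186. No set of Tmem176 cells reached the lowest set of the other cells, and the log2 ratio was -1.10 (-2.01 to -0.33). Izumo1r, which encodes folate receptor 4 of Treg cells, lay between 219 and 855 CPM in Tmem176 cells, with a median of 637, against 1074 to 1218 CPM in cells with a sum of 0, with a median of 1179.9. It too did not overlap, at a log2 ratio of -0.80 (-1.09 to -0.52). Ikzf4, which encodes the Helios relative Eos, had 4 UMIs against 12.7 expected. Foxp3 itself had 5 UMIs against 3.20 expected (log2 ratio 0.64, -0.99 to 1.88), and with 3.85% of Tmem176 cells, 2.25% of cells with a sum of 0 and 1.15% of B cells positive after thinning, no difference was detectable at this depth. Il2ra at 0.32, Ctla4 at -0.13, Tnfrsf18 at -0.13 and Tnfrsf4 at -0.54 were measured and not called. The targeted gene Bach2, a repressor that limits effector differentiation of T cells, had 4 UMIs against 4.18 expected (log2 ratio -0.06, -1.95 to 1.30), and the sources used here do not say which part of it the loxP sites flank.

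Within the list of activated and effector Treg genes, the genes parted: 6 of 14 genes with at least 10 UMIs expected rose and 4 fell, against 4.47% and 5.59% of all such genes. Ccr2, Lgals3, Cd44 and Asb2 were measured through the Tmem176 cells alone. Icos, the costimulatory receptor, rose by 0.79 on the log2 scale, beside Id2, Maf, S100a4, S100a6 and Lgals1. Ccl5, a chemokine of cytotoxic and memory T cells, lay between 0 and 59.4 CPM over the sets in Tmem176 cells, with a median of 38.5, against 138 to 466 CPM in cells with a sum of 0, with a median of 248. Its sets did not overlap, and the 6 UMIs stood against 39.4 expected, 6.56-fold lower. Penk, the enkephalin precursor of activated Treg cells, had 2 UMIs against 14.4 expected, and Tnfrsf9, the costimulatory receptor 4-1BB, 6 against 18.6, a log2 ratio of -1.64 that turned to 0.013 when cells with a sum of 1 were taken in. Of 11 measured genes of T cell receptor response and NF-κB signalling, all with at least 10 UMIs expected, 4 fell and none rose, against 5.59% and 4.47% of all such genes. These were Tnfrsf9, Nfkb1 with a log2 ratio of -1.14 (-2.77 to 0.083), and the near-identical copies Bcl2a1d and Bcl2a1b, whose reads may be split between them. Il21r, the interleukin-21 receptor, fell with 9 UMIs against 20.1 expected and sets that did not overlap.

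The levels were also read along the Tmem176 count, in cells with sums of 0, 1, 2 and 3 or more. This count also chose the cells, so the order describes them and supports no label. Cells with a sum of 1 and Tmem176 cells were both set against the same cells with a sum of 0, so the values are given side by side only. By the same rule 178 of 5671 measured genes were higher (3.14%) and 200 were lower (3.53%) in the cells with a sum of 1. S100a4 lay at 172, 268, 752 and 1395 CPM in this order, and Ccr2 at 25.6, 62.1, 131 and 332 CPM. Ikzf2 lay at 1028, 915, 784 and 332 CPM, the lowest being in the 20 cells with a sum of 3 or more. The markers were higher mainly in those 20 cells. Serpinb1a lay at 2.43, 3.65, 10.9 and 133 CPM, and Ccr6 at 9.16, 10.96, 21.8 and 99.6 CPM. A UMI of Ccr6, Serpinb1a or Aqp3 was found in 12 of the 20 cells with a sum of 3 or more (60.0%, 36.1 to 80.9%), in 3 of the 32 with a sum of 2 (9.38%, 1.98 to 25.0%), and in 10 of the 205 with a sum of 1 (4.88%, 2.36 to 8.79%). Median depths at 0, 1, 2 and 3 or more were 2073, 2320, 2377.5 and 2574 UMIs, and the part of depth in this order was not tested.

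**Figure D3:**
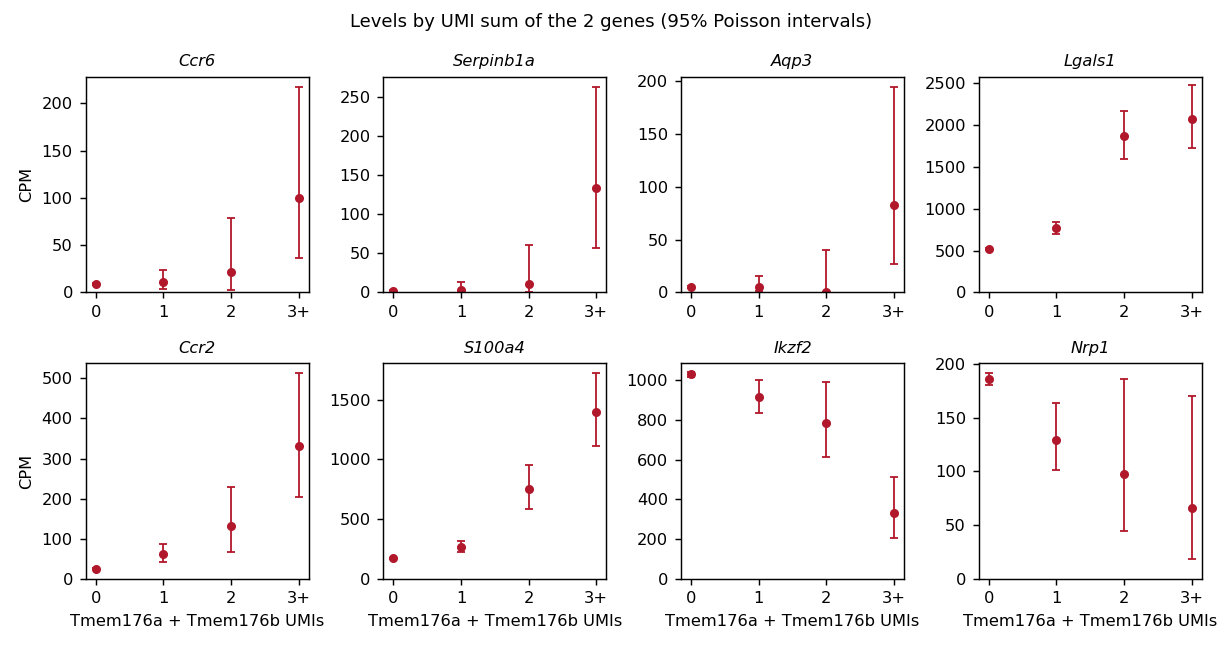
CPM of 8 genes in cells with Tmem176a plus Tmem176b sums of 0, 1, 2 and 3 or more (9829, 205, 32 and 20 cells), with exact 95% Poisson intervals. Ccr6, Serpinb1a and Aqp3 are high at 3 or more, S100a4, Ccr2 and Lgals1 are higher at each step, and Ikzf2 and Nrp1 are lowest at 3 or more.

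Among the Tmem176 cells themselves, Helios mRNA was lower in the pooled cells with a type 17 marker, most of which had a sum of 3 or more. The 15 cells with a UMI of Ccr6, Serpinb1a or Aqp3 held 14 Ikzf2 UMIs (309 CPM, 169 to 518), against 78 UMIs (731 CPM, 578 to 912) in the 37 cells with none. A marker UMI without Tmem176 counts did not go with such a difference: the 348 cells with a sum of 0 and a marker UMI had 1036 Ikzf2 CPM (973 to 1102), against 1028 CPM (1015 to 1042) in the 9481 with none. Izumo1r lay at 485 CPM (304 to 735) in the 15 cells and at 749.7 CPM (594 to 933) in the 37, with intervals that overlap. S100a4 lay at 1478 CPM (1146 to 1877) in the 15 cells and at 806 CPM (645 to 995) in the 37, so it was above the 172 CPM of all cells with a sum of 0 on both sides of this split. The median depth was 2637 UMIs in the 15 cells and 2444 UMIs in the 37. Of the 15 cells, 12 had a sum of 3 or more, so the marker and the Tmem176 count cannot be told apart in this split. The other 3 had a sum of 2 and held 7, 1 and 0 Ikzf2 UMIs. The subsets with and without a marker were formed after the values had been seen, and a cell near the threshold can lie on either side by counting alone.

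**Figure D4:**
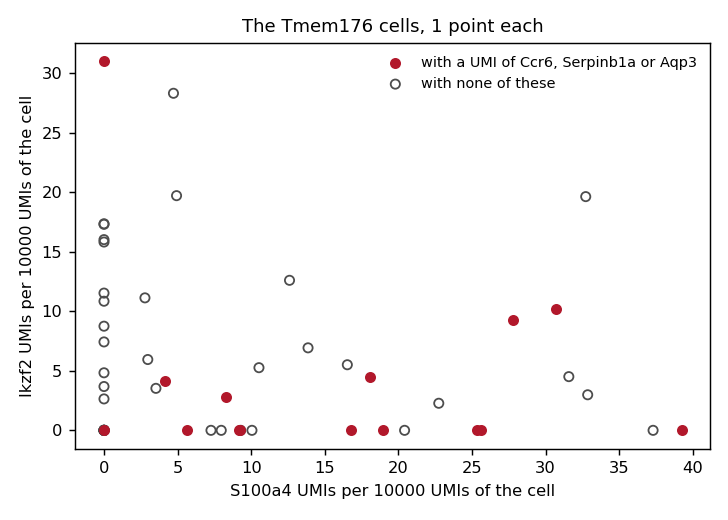
Each of the 52 Tmem176 cells by its S100a4 UMIs (horizontal) and Ikzf2 UMIs (vertical), both per 10000 UMIs of the cell. Filled points are the 15 cells with a UMI of Ccr6, Serpinb1a or Aqp3, most of which lie at an Ikzf2 count of 0, and open points are the other 37.

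The position of the cells was read from clusters drawn without Tmem176a, Tmem176b, Bach2, mitochondrial and ribosomal protein genes. The Tmem176 cells formed no cluster of their own, and each of the 7 clusters held at least 1 of them. Cluster 1, of 1835 cells led by S100a4 and Ccr2, held 25 of 52 Tmem176 cells (48.1%, 34.0 to 62.4%), against 17.9% of cells with a sum of 0 (17.2 to 18.7%). As S100a4 and Ccr2 helped to draw this cluster, the share restates their levels. It held 14 of the 20 cells with a sum of 3 or more and 11 of the 32 with a sum of 2. The share varied by set, with 4 of 4 Tmem176 cells in barcode set 2 and 2 of 10 in set 6. Cluster 3, led by the resting T cell genes Igfbp4 and Ly6c1, held 9 Tmem176 cells, none of them with a sum of 3 or more.

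Inside cluster 1 the Tmem176 cells still differed from their neighbours. Ikzf2 had 21 UMIs in the 25 Tmem176 cells, against 68.9 expected from the cells with a sum of 0 of the same cluster and sets, a log2 ratio of -1.72 (-2.41 to -1.10). Nrp1 had a log2 ratio of -1.46 (-2.91 to -0.33) and Izumo1r of -0.63 (-1.28 to -0.05) there. S100a4 at 1.28 and Ccr2 at 1.95 were above their neighbours too, though by less than in the comparison over all cells. Over all clusters, with expected counts taken per set and cluster, Ikzf2 had a log2 ratio of -0.77, S100a4 of 1.36 and Ccr2 of 2.04.

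**Figure D5:**
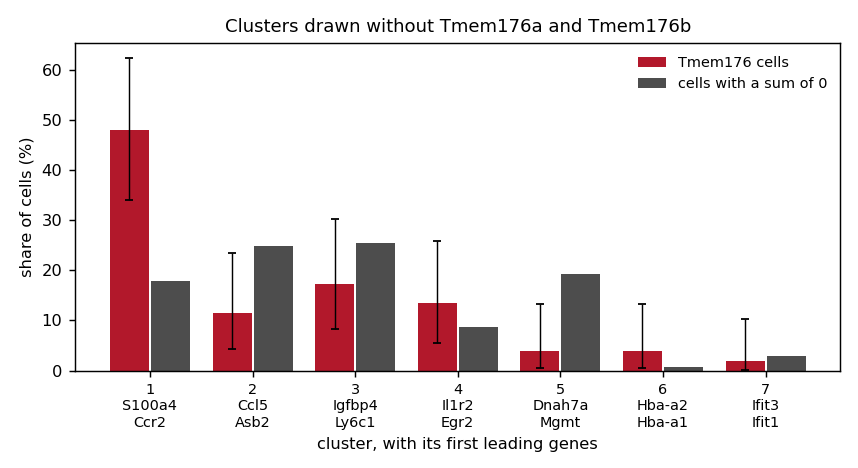
Share of Tmem176 cells and of cells with a sum of 0 in each of 7 clusters, in percent of each kind, with exact 95% binomial intervals on the Tmem176 cells. Labels give the first leading genes of a cluster, and cluster 1 holds 48.1% of Tmem176 cells against 17.9% of cells with a sum of 0.

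The cells carried T cell mRNA, and defining genes of other lineages were at or near 0. The limits had removed cells with a UMI of Cd79a, Lyz2 or Tyrobp from both groups, so low B cell and myeloid counts were set in part by the rule. Few UMIs were expected of many genes at 0 below, with 0.0154 for Itgax, 0.0583 for Csf1r and 0.0391 for Kit. A count of 0 of such a gene shows no difference between the groups. All 52 Tmem176 cells had a UMI of a T cell receptor complex gene (Cd3d, Cd3e, Cd3g, Trac, Trbc1 or Trbc2), and Cd4 with 22 UMIs against 20.9 expected and Cd3e with 124 against 109.6 were not called. All 12 measured T cell receptor and coreceptor genes had at least 10 UMIs expected. Cd28 alone of them rose, at 0.80, against 4.47% higher among all such genes. The dendritic cell genes Itgax, Flt3, Zbtb46, Xcr1 and Tcf4 were at 0 UMIs, none of 3 measured genes of that list was called, and the whole list had 82 UMIs against 87.5 expected. Among myeloid genes, Csf1r, Cd68, Spi1, C1qa, C1qb and Fcer1g were at 0, and the list had 41 UMIs against 52.3 expected, 37 of them from the cathepsin gene Ctss. B cell genes reached 7 UMIs against 8.18 expected, 6 of them from Cd79b. Of the gamma-delta T cell list the table held Blk, at 1 UMI, and Trdc was not analysed here. Among innate lymphoid and NKT cell genes Kit, Klrb1c, Klrk1 and Eomes were at 0. Id2 was the 1 of 6 measured genes of that list that rose, against 7.75% higher among all measured genes. In the NK and CD8 list Ccl5 fell and Nkg7, at 0.31, was not called.

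Few genes of the remaining lists were called. Among all measured genes 7.75% were higher and 4.45% lower, and among all genes with at least 10 UMIs expected 4.47% and 5.59%. Against these shares, a call of 1 or 2 genes in a short list cannot be read as a result about its members. None of 15 measured interferon response genes, 7 channels and transporters or 4 AP-1 and BACH family genes was called, and Jun at -0.37, Junb at -0.24 and Batf at 0.24 lay near 0. None of 10 resting and lymphoid-homing genes with at least 10 UMIs expected was called, Ccr7 at -0.62, Lef1 at -0.57 and Il7r at 0.19 among them. Klf2, also of these, lay at 0.55 (0.27 to 0.82), above expectation in 5 of 6 sets and just under the 1.5-fold limit. Ly6c1, measured through the Tmem176 cells alone, met the rule at 0.61 (-0.39 to 1.46) but lay at -0.23 after thinning. Of 3 measured sterol synthesis genes Ebp rose, at 0.97, and Fdps, at 1.25, and Sc5d, at 1.13, were not called. Of 8 measured serpins and proteases the cathepsin genes Ctsa and Ctsz met the rule for lower genes, at -0.59 (-1.91 to 0.45) and -0.72 (-2.04 to 0.32), with intervals that span 0. The Ctsa value was 0.19 with cells of a sum of 1 taken in and 0.061 without cells that held UMIs of other cell types. Btg1, an antiproliferative gene, at -0.59, was the 1 of 13 measured immediate early and stress genes that fell. The cytokine receptor list had Il21r lower among 7 genes with at least 10 UMIs expected, and the cytokine list Ccl5 and Penk lower among 6. Outside the lists, the largest ratios were of genes with fewer than 10 UMIs expected, measured through the Tmem176 cells alone: Sept11, a septin of the cytoskeleton, at 2.61, Dkkl1 at 2.22, the G protein gene Gna15 at 1.97, the phosphatase gene Cdc25b at 1.93, Flot2 at 1.75 and Ikzf3, which encodes Aiolos, at 1.55. The largest falls outside the lists were of Dgkz, a kinase that dampens T cell receptor signals, at -2.34, Kif5b at -1.57, Cd200 at -1.54, Zcchc7 at -1.51 and Cd96 at -1.49. Dgkz, with 2 UMIs against 10.1 expected, lay at 0.24 with cells of a sum of 1 taken in, and in cells with a sum of 1 alone Dgkz lay at 0.54 and Kif5b at 0.13.

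Promoters of the genes that results turn on were searched for TAGGTCA (reverse complement TGACCTA), a half-site that some nuclear receptors bind, on both strands of the 300 bases from 250 before to 50 after the start of transcription (RefSeq, GRCm38.p6). Of all 32851 promoters 2.61% held it. It was found for 2 of the 20 matched genes among the 26 named higher genes and markers, S100a4 and Ccr6, and for none of 16 matched lower genes. TGAGTCA, the core that AP-1 and BACH factors bind, stood in 5.20% of the promoters searched, or for 5.95% of genes. Among the matched genes it stood in the promoters of Anxa2, Hbb-bs and Tnfrsf9. The S100a4 and Ccr6 windows are printed to show where the letters stand, with the match in capitals: in S100a4 (chr3:90603520-90603819, plus strand) it starts 25 bases before the start on the gene's strand, and in Ccr6 (chr17:8235793-8236092, plus strand) 44 bases before it on the opposite strand. A match describes letters and says nothing about binding.
S100a4: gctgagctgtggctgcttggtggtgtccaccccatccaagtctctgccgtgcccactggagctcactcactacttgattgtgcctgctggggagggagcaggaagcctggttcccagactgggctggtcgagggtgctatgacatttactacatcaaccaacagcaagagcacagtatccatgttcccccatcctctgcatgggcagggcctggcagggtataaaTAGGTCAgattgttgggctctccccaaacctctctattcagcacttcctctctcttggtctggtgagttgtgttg
Ccr6: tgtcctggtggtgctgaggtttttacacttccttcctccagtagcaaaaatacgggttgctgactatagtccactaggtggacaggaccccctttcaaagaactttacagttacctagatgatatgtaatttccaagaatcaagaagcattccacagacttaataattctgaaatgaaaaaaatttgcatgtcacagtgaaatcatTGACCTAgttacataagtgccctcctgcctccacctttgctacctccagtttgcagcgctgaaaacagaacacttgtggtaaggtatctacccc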

How the data were processed

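The 6 samples were single-cell libraries of the Chromium 3′ v2 chemistry, per the labels' protocols, which also list bulk RNA steps whose use is not stated. The build mm10 and the tools Seurat, Cell Ranger, HISAT2, cutadapt and FastQC are listed, without versions, roles or order, per the submitters' processing notes. The authors deposited a table of whole UMI counts of 14098 genes in 10685 cells. They also deposited a table in natural log units, which held ln(1 + 10000 × count / cell total) for 10464 cells. It was used here to list its cells, 51 of the 52 Tmem176 cells among them. Cells are columns named by barcode in both tables, and their group could not be read from these names.

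UMIs were summed per barcode set and kind of cell. Expected UMIs are those the cells with a sum of 0 of the same set would give at the Tmem176 cells' total. The ratio is the conditional maximum likelihood estimate of 1 rate ratio over the 6 sets, with an exact conditional interval, and CPM have exact Poisson and shares exact Clopper-Pearson intervals. As cells do not replicate a condition, there are no p-values. The step that makes ratios and calls was tested on simulated data. Thinning drew 1000 UMIs per cell without replacement and left out 294 cells with a sum of 0 and no Tmem176 cell. Clusters were Leiden clusters (2000 variable genes, 30 principal components, 15 neighbours, resolution 0.8, seed 1). No doublet caller was run. An alternative left out the deepest 2% of cells. Named genes were fixed marker and lineage genes, the 15 largest ratios among higher genes found in at least 10% of Tmem176 cells, the 12 smallest among lower genes, and up to 4 genes with the largest absolute ratios of each of 25 lists. Other list members and the genes of the alternatives were chosen after their values were seen. The cells, the markers and the lists were chosen with earlier results of these data known. Coordinates are from GENCODE M21 on GRCm38. Tools were Python 3.11.15, numpy 2.4.6, scipy 1.17.1, pandas 2.3.3, matplotlib 3.10.9, scanpy 1.11.5, scikit-learn 1.9.0 and python-igraph 0.11.9. Some planned genes are not reported here.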

Additional observations from a re-analysis of the deposited data

How the results depend on the processing

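No paired analysis was possible because the cells carry no replicate or sample label of the study, and comparisons were made within the 6 barcode sets instead. Named genes were compared over at most 21 other settings each, besides the cells with a sum of exactly 1. With those cells included, 2011 values for 101 named genes lay within the counting interval of the reported value with no change of sign in a called gene. Outside it moved 168 values of 71 genes, and 14 values of 10 called genes changed sign. Among the 57 named genes that were not called, 100 values of 34 genes changed sign. The number of Tmem176 cells was 257 with a sum of 1 or more, 20 with 3 or more, 32 with a UMI of each gene and 27 without UMIs of other cell types. Against 174 higher genes, 65 were called at a sum of 3 or more, 109 with a UMI of each gene, 77 after thinning, 66 without UMIs of other cell types, 42 at a minimum of 30 UMIs and 55 at 2-fold. Against 100 lower genes, 220 were called at a sum of 1 or more, 47 at 3 or more, 66 with a UMI of each gene, 38 after thinning, 58 without UMIs of other cell types, 1643 with no minimum, 15 at 30 UMIs, 42 at 2-fold and 200 in cells with a sum of exactly 1. Under some of these settings many of the called genes were different ones. Of the 174, 25 were called again at a sum of 1 or more and 31 at 3 or more. With a UMI of each gene 60 were, after thinning 38, and without UMIs of other cell types 33. For the 100 lower genes the numbers in this order were 9, 15, 26, 12 and 16. Fewer cells or UMIs left fewer genes measured, 859 at a sum of 3 or more and 739 after thinning. At a sum of 1 or more 6417 genes were measured, of which 3.30% were higher and 3.43% lower. Leaving out 1 barcode set at a time gave 196 to 254 higher and 94 to 105 lower genes, and 79 of the 174 and 34 of the 100 were called without each set in turn. Signs changed at a sum of 1 or more for Dgkz (0.24), Tnfrsf9 (0.013) and Ctsa (0.19), after thinning for Ly6c1 (-0.23), and without UMIs of other cell types for Ctsa (0.061). In cells with a sum of exactly 1, chosen after seeing the data, they changed for Ikzf3 (-0.17), Rnf44 (-0.23), Dgkz (0.54), Tnfrsf9 (0.27), Kif5b (0.13), Il18r1 (-0.30), Cd28 (-0.020), Ctsa (0.35) and Nfkb1 (0.024). The cause of these changes was not tested. Weighting the cells with a sum of 0 to the depth of the Tmem176 cells gave log2 ratios of 2.53 for S100a4 and -0.59 for Ikzf2, and thinning gave 2.55 and -1.08. Totals without ribosomal and mitochondrial genes shifted log2 ratios by a median of -0.07. The share of Tmem176 cells in the cluster that held most of them ran from 46.2% to 61.5% over 5 other cluster settings. With 152038 UMIs in the Tmem176 cells, a gene near 20 CPM rests on about 3 UMIs.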

Other observations

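Few cells were cycling, and their share was higher among the Tmem176 cells but rests on 2 of them. At least 5 UMIs over 10 proliferation genes were found in 2 of 52 Tmem176 cells (3.85%, 0.469 to 13.2%), against 62 of 9829 cells with a sum of 0 (0.631%, 0.484 to 0.808%). Both were in barcode set 6 and were the deepest Tmem176 cells, with 7189 and 8795 UMIs. The tubulin-binding protein gene Stmn1 had a log2 ratio of 2.04 with these cells and of -1.26 without cycling cells, and none of 9 measured cell cycle genes was called.

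The globin genes Hba-a1, Hba-a2 and Hbb-bs met the rule for lower genes in Tmem176 cells, with 2, 0 and 2 UMIs. Over 50% of the UMIs were erythroid in 4 cells with a sum of 0 and in no Tmem176 cell. Without these 4 cells the log2 ratio of Hba-a1 was -0.06, against -4.03 with them, and that of Hbb-bs was -1.11, against -4.70.

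The limits on other cell types kept out 594 cells, of which 9 had a Tmem176 sum of 2 or more. Lyz2 had a UMI in 8 of these 9, Tyrobp in 7 and Cd79a in 3.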
